A study of Mus musculus with 12 samples.

Results

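In C2C12 cells, a mouse myoblast line, 3361 regions of the genome carried dimethylated and trimethylated lysine 4 of histone H3 (H3K4me2 and H3K4me3) in both treatments and held a monomethylation (H3K4me1) peak with vehicle but none with the LSD1 inhibitor S2101. They were found by pooling the peaks of 6 deposited lists, merging peaks that overlap by at least 1 bp into 51372 regions, and asking which lists had a peak in each region. Of the 51372 regions, 11600 had H3K4me2 and H3K4me3 in both treatments and are called promoter-like here for those marks alone, since no gene start was placed on them. Among these 11600, 1467 had H3K4me1 in both treatments, 6460 in neither and 312 with S2101 only. The 3361 regions were chosen by the measured presence of a peak of each mark in each treatment, so which lists they appear in, and the scores and widths of the H3K4me1 peaks, are given as a description with no test. "Vehicle-only regions" below means these 3361, for the treatment in which H3K4me1 was listed, and "regions without H3K4me1" means the 6460 with it in neither treatment.

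The cells were made to differentiate in medium with horse serum, with S2101 at 10 µM or vehicle, for 48 h (day 2), and were then fixed and used for chromatin immunoprecipitation with sequencing (ChIP-seq). Both treatments share the cell line, the differentiation medium and the time, and differ in the inhibitor. The libraries of H3K4me1 and H3K4me2 belong to experiment 1 and those of H3K4me3 to experiment 2, so a mark and its experiment cannot be told apart when H3K4me3 is set beside the others. Each list comes from 1 library per mark and treatment, so no contrast of the treatments carries a replicate check or a p-value, and the read depth of the libraries is unknown. The whole H3K4me1 list was shorter with S2101 (20664 peaks covering 9335033 bp) than with vehicle (40432 peaks, 26932714 bp), the H3K4me2 list covered 15916380 bp against 34081301 bp although it held more peaks (24444 against 21447), and the H3K4me3 list covered 26782816 bp in 14324 peaks against 24403112 bp in 13589. Whether the amount of these marks per cell differed cannot be read from peak lists.

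The demethylase LSD1, encoded by Kdm1a, acts on H3K4me1 and H3K4me2 and leaves H3K4me3 untouched. At active promoters, H3K4me3 covers the nucleosomes around the transcription start, H3K4me2 reaches slightly further out, and H3K4me1 is typically strongest on the outer flanks, where it borders unmodified chromatin. H3K4me1 without H3K4me3 is the usual mark of enhancers. Myoblasts that enter differentiation change the use of many promoters and enhancers.

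The vehicle H3K4me1 in the vehicle-only regions was short and low in score. A region was 2454 bp wide at the median (quartiles 1907 and 3212 bp), and vehicle H3K4me1 covered 527 bp of it (quartiles 398 and 816 bp), against 2291 bp for vehicle H3K4me2 and 1922 bp for vehicle H3K4me3. The score is the peak caller's own value, which starts at 100 in these lists and ranks peaks within a list. Read depth is unknown, so a difference between scores of different lists is not read as one of signal. The best H3K4me1 score in a region was 164 at the median (quartiles 125 and 229, highest 1091.5). In the 1467 regions that held H3K4me1 in both treatments, vehicle H3K4me1 covered 1080 bp and its best score was 299 at the median. Where it was listed with S2101 in those, it covered 440 bp at the median with a median best score of 151, and the ratio of S2101 to vehicle length, taken per region, was 0.487 at the median (quartiles 0.327 and 0.666). Most vehicle-only regions, 2627 of 3361 (78.2%), had a single H3K4me1 peak, 632 had 2 and 3.03% had 3 or more.

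Of the promoter-like regions with vehicle H3K4me1, 69.6% (3361 of 4828; 95% Wilson interval 68.3 to 70.9%, counting error only) had none with S2101. The background over all 36274 merged regions with vehicle H3K4me1 was 66.5%. Because the rule used this contrast, nothing is read from how near the 2 shares lie. The share went down along the vehicle score. In the lowest score decile of the 4828 regions, 88.4% (427 of 483) had no S2101 H3K4me1, and in the decile from 185 to 217 it was 75.8%. It was 46.2% in the decile from 332 to 482 and 15.5% (75 of 483; interval 12.6 to 19.0%) in the highest, which starts at a score of 482. The number of vehicle-only regions rests on the threshold of the lists: it was 1394, or 55.4% of such regions, with the vehicle H3K4me1 list cut by score to the length of the S2101 list, and 1589, or 83.1%, with scores of at least 200 in all lists.

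**Figure D1:**
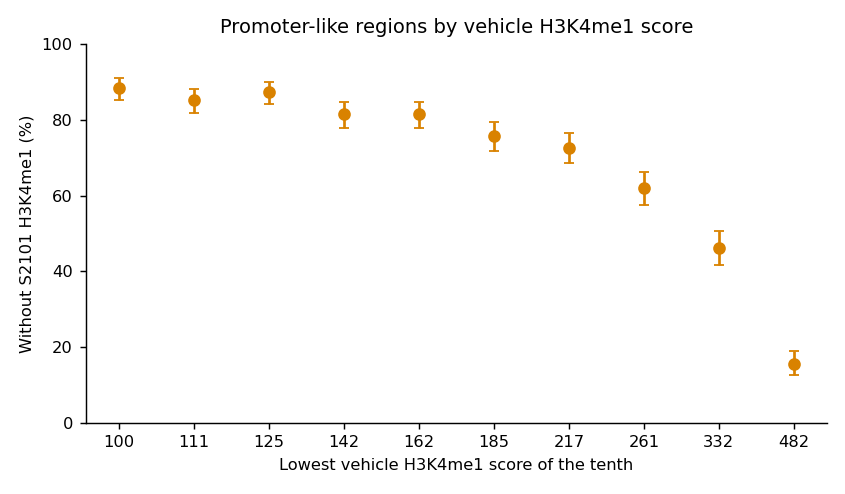
Share of promoter-like regions with vehicle H3K4me1 that had no S2101 H3K4me1 peak (y axis, %), in deciles of the best vehicle H3K4me1 score (x axis, lowest score of each decile). Points are shares of 482 or 483 regions, bars are 95% Wilson intervals, and the share goes from 88.4% in the lowest decile to 15.5% in the highest.

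In most vehicle-only regions H3K4me1 reached beyond H3K4me3 on 1 side only. Merging kept only H3K4me1 that was joined to the other marks by overlap. It was mostly a single peak, and covered 527 bp at the median against 1922 bp for vehicle H3K4me3. A place near H3K4me3, and on 1 side of it, is thus partly set by the rule and by peak length. The working description of these regions speaks of flanking H3K4me1, which holds for part of them. Taking the outer bounds of vehicle H3K4me3 in each region, 2239 of the 3361 (66.6%; 95% Wilson interval 65.0 to 68.2%) had vehicle H3K4me1 reaching beyond 1 bound only, 343 (10.2%) beyond both, and 779 (23.2%) had it inside H3K4me3 only. The 1-sided ones were divided between the left (1061) and the right (1178) along the chromosome, which says nothing of the direction of transcription. In 368 regions no H3K4me1 base lay within those bounds. By bases, 58.3% of the vehicle H3K4me1 length was under vehicle H3K4me3 (SD 4.37 over 19 autosomes, which are not replicates), so more of it overlapped the H3K4me3 peak than lay outside.

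In the 1467 regions with H3K4me1 in both treatments, the mark was more often on both sides (31.3%; 459 regions) and less often inside only (11.5%), and 39.7% of its length was under vehicle H3K4me3. The share of regions without S2101 H3K4me1 was 82.3% (95% Wilson interval 79.7 to 84.6%) of those with it inside only, 72.7% (71.1 to 74.3%) of those with it on 1 side and 42.8% (39.4 to 46.2%) of those with it on both sides. Their vehicle scores also differed, with medians of 137, 184 and 326. In the highest tertile of scores, the shares were 60.8% (62 regions), 49.6% (473 of 953) and 31.5% (175 of 555). In the middle tertile they were 82.0%, 79.0% and 65.0% (58.1 to 71.3%). In the lowest tertile they were 86.5%, 87.5% and 80% (40 of 50 regions, interval 67.0 to 88.8%). The intervals hold counting error only. Because the rule used this contrast, no difference between the placements is read from these shares. The vehicle-only regions with H3K4me1 on both sides were 2863 bp wide at the median, those with it on 1 side 2465 bp and those with it inside only 2257 bp, and the part of width in these shares was not tested.

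The 8 regions with the highest vehicle H3K4me1 score show how the marks are arranged. On chromosome 11 (87910232 to 87914247, mm9, 1-based as all positions here), 1 H3K4me1 peak of 1966 bp (score 1091.5) extended from −2693 to −727 bp, counted from the centre of vehicle H3K4me3. H3K4me2 covered 2646 bp there with vehicle, in 1 peak, and with S2101 1766 bp, in 2 peaks that left the centre uncovered. H3K4me3 covered 1996 bp and 2300 bp. The nearest S2101 H3K4me1 peak was 5298 bp away.

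On chromosome 15 (76160582 to 76163357), 2 H3K4me1 peaks (score 1025.03) covered 2189 of the 2776 bp, 1847 of them inside H3K4me3. H3K4me3 was shorter here with S2101, 1887 bp against 2434 bp, and H3K4me2 covered 2009 bp against 2600 bp. The region on chromosome 17 (47729807 to 47735055) had H3K4me1 on both sides, 309 bp and 1413 bp outside H3K4me3, and its H3K4me2 went from 1 peak of 5007 bp to 3 peaks that covered 1447 bp. On chromosome 1 (134187562 to 134190287) H3K4me1 covered 2226 bp, but an S2101 H3K4me1 peak stood only 12 bp outside the region. Vehicle H3K4me3 scored 174.61 there. The median and the upper quartile over the vehicle-only regions were both 3100, a value that many regions share and that does not rank them.

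Among the other regions with the highest scores, the one on chromosome 10 (79166605 to 79170792) had a single H3K4me1 peak of 1977 bp that did not touch vehicle H3K4me3. There H3K4me3 was longer with S2101, 2832 bp against 1588 bp, and H3K4me2 shorter, 1096 bp against 3319 bp. The region on chromosome 11 (75322332 to 75324375) had 1341 bp of H3K4me1, and its H3K4me3 length was 922 bp (vehicle) and 1129 bp (S2101). On chromosome 8 (97393681 to 97395429), H3K4me1 covered 1746 of 1749 bp and lay over all 1085 bp of H3K4me3. The region on chromosome 10 (127471490 to 127478204) held most H3K4me1 of all 3361, 3704 bp in 5 peaks, 2567 bp of it on 1 side. In all 8 regions H3K4me2 was shorter with S2101, with ratios from 0.289 to 0.773, whereas H3K4me3 was longer in 4 and shorter in 4.

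**Figure D2:**
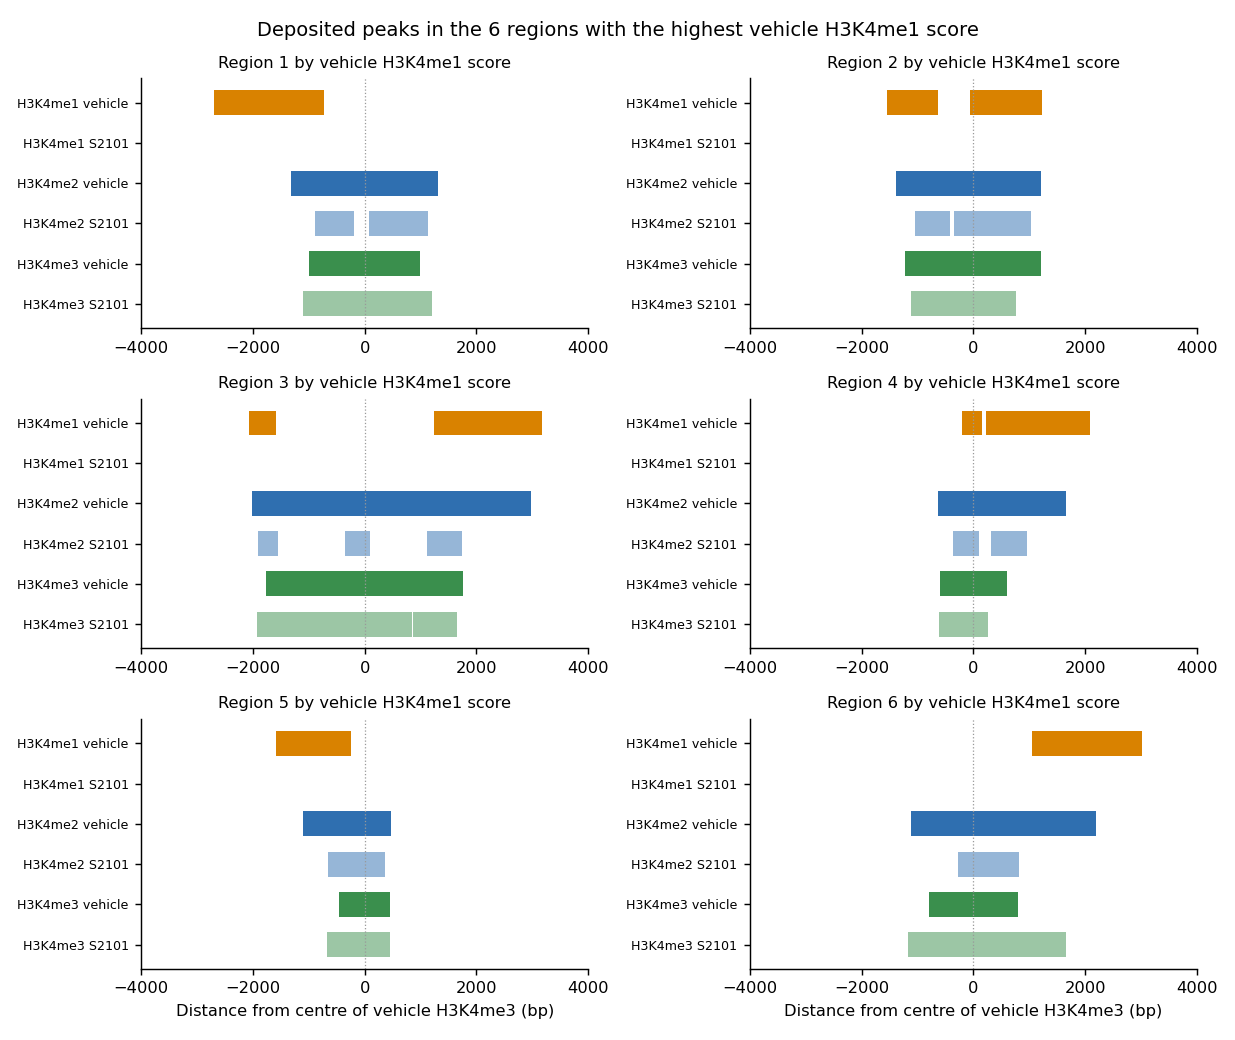
Peaks of the 6 lists in the 6 vehicle-only regions with the highest vehicle H3K4me1 score, each panel 1 region, with distance from the centre of vehicle H3K4me3 in bp on the x axis. Rows are marks, full colour is vehicle and pale colour S2101. The S2101 H3K4me1 row is empty by the rule, and the S2101 H3K4me2 peaks are shorter than the vehicle ones in every panel, and in more pieces in panels 1 to 4.

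The next regions by H3K4me1 length were on chromosome 17 (33915433 to 33920461, 3329 bp of H3K4me1), chromosome 15 (76056898 to 76061273, 3172 bp, and 98814840 to 98819492, 3105 bp) and chromosome 8 (87952650 to 87957522, 3076 bp). Each had 3 or 4 H3K4me1 peaks and the mark on both sides. Their H3K4me2 ratios ran from 0.592 to 0.700 and their H3K4me3 ratios from 1.02 to 1.23. An S2101 H3K4me1 peak lay 714 bp from the one on chromosome 17 and 42114 bp from the one on chromosome 8.

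The 5 widest regions held between 471 and 3015 bp of H3K4me1. The widest, on chromosome 13 (63340538 to 63353427, 12890 bp), held 976 bp of H3K4me1, all inside H3K4me3, and its H3K4me2 was in 2 vehicle peaks of 11926 bp in all and 11 S2101 peaks of 7538 bp in all. The region on chromosome 5 (123583612 to 123595478) had 3015 bp of H3K4me1, and 1 vehicle H3K4me2 peak of 11300 bp stood against 9 S2101 peaks of 7935 bp in all. The others were on chromosome 12 (74138632 to 74149703), chromosome 1 (82278674 to 82289665) and chromosome 4 (88578014 to 88588875), with 1035, 1180 and 471 bp of H3K4me1. H3K4me3 covered between 8989 and 11565 bp with vehicle in these 5 regions, and its ratio was 1.02 to 1.08.

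H3K4me2, the other substrate of LSD1, was shorter with S2101 in almost all vehicle-only regions. The ratio of covered length, S2101 over vehicle, was 0.576 at the median (quartiles 0.467 and 0.681; range of the medians of the 19 autosomes 0.479 to 0.647), and H3K4me2 was shorter in 3348 of 3361, longer in 12 and equal in 1. A ratio of 0.5 or less was found in 31.9% (95% Wilson interval 30.4 to 33.5%), where the background over all 13598 regions with H3K4me2 in both treatments was 42.8% and the median ratio 0.533. The regions with H3K4me1 in both treatments had a median ratio of 0.582, with 32.4% at 0.5 or less, and those with H3K4me1 in neither had 0.525 and 45.0%. H3K4me2 was shorter in 99.5% of the regions with H3K4me1 in both treatments and in 99.6% of those with it in neither. Shortening of H3K4me2 was therefore present with and without vehicle H3K4me1.

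The gap to the regions without H3K4me1 was also present among regions with like lengths of vehicle H3K4me2. Among regions with 1000 to 2000 bp of vehicle H3K4me2, the median ratio was 0.614 in 1103 vehicle-only regions and 0.543 in 2902 regions without H3K4me1. From 2000 to 3000 bp it was 0.564 and 0.508, from 3000 to 4000 bp 0.546 and 0.488, and above 4000 bp 0.567 and 0.529. Under 1000 bp, with 96 and 456 regions, it was 0.571 and 0.547. The vehicle-only regions had the higher ratio in each of these 5 classes. Their vehicle H3K4me2 score was also higher, 992 at the median against 712, and the part of this in the gap was not tested.

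**Figure D3:**
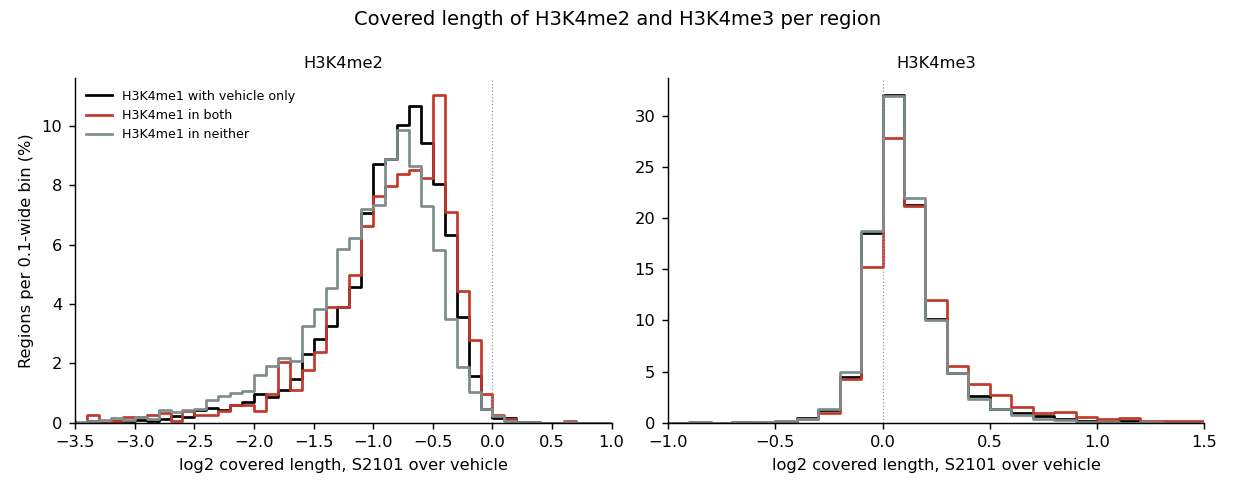
Distribution of the covered length of H3K4me2 (left) and H3K4me3 (right) per region, as log2 of S2101 over vehicle on the x axis and the share of regions per bin on the y axis. Vehicle-only regions (black, 3361) lie almost wholly below 0 for H3K4me2 and mostly slightly above 0 for H3K4me3, as do regions with H3K4me1 in both treatments (red, 1467) or neither (grey, 6460).

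H3K4me2 was also broken into more pieces. A single vehicle H3K4me2 peak stood against 2 or more S2101 peaks in 1427 of the 3361 (42.5%; 95% Wilson interval 40.8 to 44.1%), and against 1 in 1083. The share was 43.0% (40.5 to 45.6%) in regions with H3K4me1 in both treatments and 37.1% (35.9 to 38.3%) in those with H3K4me1 in neither. Where 1 vehicle peak was replaced by exactly 2, in 1041 regions, the gap between the 2 was 209 bp long at the median. It lay inside vehicle H3K4me3 in 993 (95.4%), compared with 83.2% in regions with H3K4me1 in both and 97.4% in those with it in neither. Such a gap lies between the outer edges of S2101 H3K4me2, which were mostly inside vehicle H3K4me3 (below). These shares are thus largely set by that geometry, and no place of breaking is read from them. In the 3168 vehicle-only regions with 1 vehicle H3K4me3 peak, H3K4me2 covered its midpoint in 95.01% with vehicle and in 67.5% with S2101 (95% Wilson interval 65.8 to 69.1%). H3K4me3 covered that midpoint in 99.9% with S2101. In regions without H3K4me1 the midpoint was under S2101 H3K4me2 in 59.7% (58.5 to 61.0%), and in regions with H3K4me1 in both in 75.02% (72.6 to 77.3%).

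The extremes of the H3K4me2 ratio were chosen among regions with at least 500 bp of vehicle H3K4me2. The lowest was 0.0847, on chromosome 7 (72512333 to 72516831), where 3 vehicle peaks covered 3130 bp and 1 S2101 peak 265 bp, while H3K4me3 covered 3102 bp and 3382 bp. On chromosome 8 (11000855 to 11005416) H3K4me2 covered 4324 bp and 419 bp, and on chromosome 17 (29230011 to 29234289) 4151 bp and 403 bp, again with H3K4me3 longer with S2101. At the other end, H3K4me2 was longer with S2101 on chromosome 11 (105224099 to 105225082, 799 bp against 610 bp), chromosome 16 (97756065 to 97757985, 1555 against 1313 bp) and chromosome 15 (79500482 to 79502833, 1600 against 1432 bp). The first of these had a vehicle H3K4me2 score of 122.15, near the lowest score of the lists.

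H3K4me3, which LSD1 does not demethylate, was slightly longer with S2101. Its ratio was 1.06 at the median (quartiles 1.0 and 1.13; autosome medians 1.04 to 1.07), and it was longer in 2524 of 3361 (75.1%; 95% Wilson interval 73.6 to 76.5%) and shorter in 834. H3K4me3 was longer in 78.7% of the regions with H3K4me1 in both treatments and in 74.2% of those with it in neither. A ratio of 1.1 or more was found in 33.1% of the vehicle-only regions, against a background of 35.3% over the 12715 regions with H3K4me3 in both treatments. It was found in 32.6% of the regions with H3K4me1 in neither treatment and in 42.1% (39.6 to 44.6%) of those with H3K4me1 in both. The share with such a ratio in the vehicle-only regions thus stood near the background and near that of the regions with H3K4me1 in neither treatment. In 3084 of them H3K4me3 was 1 peak in both treatments.

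The largest H3K4me3 ratios, among regions with at least 500 bp of vehicle H3K4me3, were where vehicle H3K4me3 was weak. On chromosome 16 (43502436 to 43509462) vehicle H3K4me3 covered 1218 bp (best score 126.73) and S2101 H3K4me3 3518 bp, a ratio of 2.89, inside a vehicle H3K4me2 peak of 7027 bp. On chromosome 19 (6398495 to 6400281) it covered 616 bp and 1666 bp, and H3K4me1 had lain over all 616 bp. On chromosome 17 (45734957 to 45737855) it covered 690 bp and 1846 bp. The lowest ratios were 0.651 on chromosome 5 (126012589 to 126013615, 770 and 501 bp), 0.710 on chromosome 11 (107340307 to 107343155, 2409 and 1710 bp) and 0.733 in the region on chromosome 1 at 134187562 to 134190287.

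Around the H3K4me3 edge, the 2239 regions with H3K4me1 on 1 side allow that side to be set against the other side of the same region. At the edge itself H3K4me1 was present in 81.4% with vehicle on its own side, 45.9% at 250 bp outside, 21.5% at 500 bp and 8.4% at 1000 bp. Vehicle H3K4me2 followed closely outside the edge, at 54.0% at 250 bp and 20.7% at 500 bp, and S2101 H3K4me2 was at 7.5% and 2.8%. The side was chosen by vehicle H3K4me1, and merging kept H3K4me1 only where it overlapped another peak. High H3K4me1 at the edge, and wider vehicle H3K4me2 on that side, are thus partly set by the choice. On the other side, where the rule for a side leaves no H3K4me1 in the region, vehicle H3K4me2 was at 28.6% at 250 bp and S2101 H3K4me2 at 3.3%. At 250 bp inside the edge, S2101 H3K4me2 was at 74.6% on the H3K4me1 side and 66.9% on the other.

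**Figure D4:**
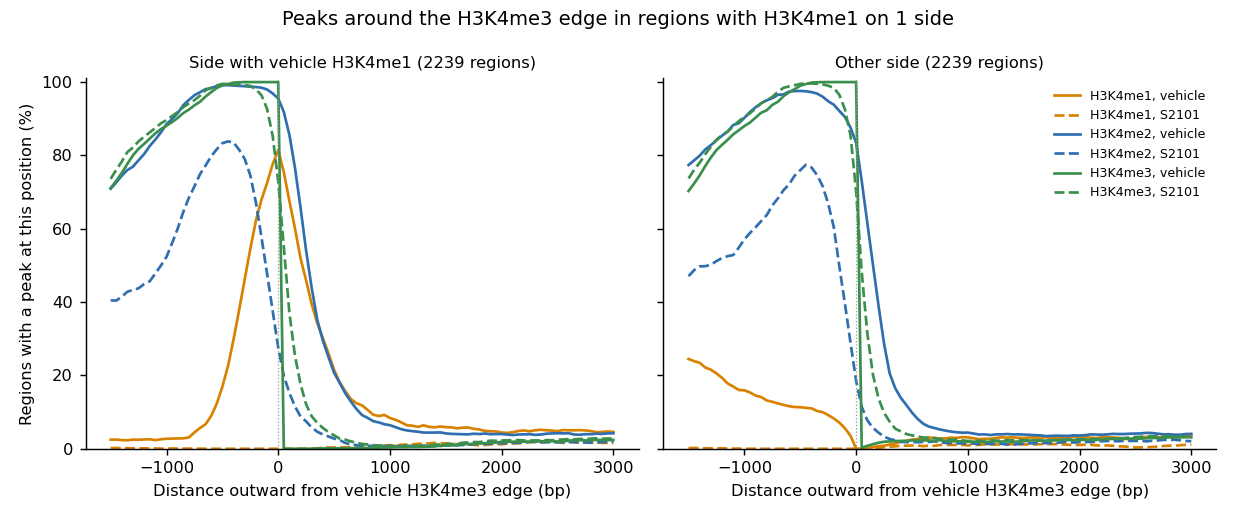
Share of the 2239 vehicle-only regions with H3K4me1 on 1 side that have a peak at each distance from the vehicle H3K4me3 edge (x axis, bp, positive outward), on the H3K4me1 side (left) and the other side (right). Solid lines are vehicle and dashed lines S2101. On its side, vehicle H3K4me1 is highest at the edge, which the choice of side and the merging partly set. S2101 H3K4me2 is highest inside the edge, and S2101 H3K4me3 reaches slightly beyond the vehicle edge on both sides.

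The outer edge of H3K4me2 lay outside H3K4me3 with vehicle and inside it with S2101, on both sides. On the H3K4me1 side its median position with vehicle was 266 bp beyond the vehicle H3K4me3 edge (quartiles 157.5 and 445.5 bp), and with S2101 −97 bp (quartiles −229 and 29.5 bp). On the other side it was at 143 bp and −144 bp. S2101 minus vehicle, the edge differed by −357 bp at the median on the H3K4me1 side (autosome medians −531 to −293.5 bp), and by −282 bp on the other side (−321 to −259 bp). Within a region the shift was further inward on the H3K4me1 side in 1298 of 2239 (58.0%) and less so in 938, with a median difference of −70 bp and quartiles of −329 and 163 bp. The difference between the sides was thus small beside its spread over regions. It is also partly set by the choice of side, which favours wide vehicle H3K4me2 there, so no effect of H3K4me1 is read from it. In the regions without H3K4me1 the H3K4me2 edge was at 134 bp (vehicle) and −173 bp (S2101), a shift of −298 bp over 12920 edges. In 840 regions with H3K4me1 in both treatments and on 1 side with vehicle, the shift was −361.5 bp on the H3K4me1 side. It was −283 bp on the other side, and both were close to those of the vehicle-only regions.

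The H3K4me3 edge differed the other way, and by less. With S2101 it lay 61 bp further out at the median on the H3K4me1 side (quartiles −8 and 152 bp) and 44 bp on the other side (quartiles −13 and 118 bp). It was further out in 72.8% of the edges on the H3K4me1 side and 69.5% on the other. The regions without H3K4me1 had a median of 41 bp, and those with H3K4me1 in both treatments 76.5 bp on the H3K4me1 side and 38 bp on the other. At 250 bp outside, S2101 H3K4me3 was present in 12.1% of regions on the H3K4me1 side and 9.8% on the other.

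Base by base, the positions that held H3K4me1 with vehicle can be sorted by the other 2 marks. Of the 2246988 such bases in the vehicle-only regions, 57.8% were under both H3K4me2 and H3K4me3 with vehicle, 29.7% under H3K4me2 only, 0.476% under H3K4me3 only and 12.01% under neither. With S2101 the same bases were under both in 44.6%, under H3K4me2 only in 2.75%, under H3K4me3 only in 21.0% and under neither in 31.7%. H3K4me2 thus covered 87.5% of them with vehicle (SD 2.09 over 19 autosomes) and 47.3% with S2101 (SD 5.34), and H3K4me3 58.3% and 65.5% (SD 4.37 and 3.90). The most common change was of bases outside H3K4me3, from H3K4me2 only to neither mark, with 18.3% of all the bases. Of those under H3K4me2 only with vehicle, 61.5% were under neither mark with S2101, 20.9% under H3K4me3 only, 10.8% under both and 6.79% under H3K4me2 only. Of those under both marks with vehicle, 71.3% were still under both and 24.2% under H3K4me3 only. Regions with H3K4me1 in both treatments differed in the same directions. There H3K4me2 covered 77.6% of the vehicle H3K4me1 bases with vehicle and 40.5% with S2101, and H3K4me3 39.7% and 47.7%.

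Inside vehicle H3K4me3, the bases that had held H3K4me1 were covered by S2101 H3K4me2 more often than bases at the same depth without it. In the outermost 250 bp, S2101 H3K4me2 covered 54.9% of the bases with vehicle H3K4me1 and 43.7% of those without, pooled over the 3361 regions. From 250 to 500 bp inside the shares were 86.9% and 75.3%, from 500 to 750 bp 92.0% and 74.6%, and from 750 to 1000 bp 89.1% and 62.2%. Vehicle H3K4me2 covered 98.6% and 92.1% in the outermost window and 95.7% or more in the others. In regions without H3K4me1, S2101 H3K4me2 covered 38.2% of the outermost window and 70.9% of the next. Inside H3K4me3, most bases that held H3K4me1 with vehicle were thus still under H3K4me2 with S2101. The bases with and without vehicle H3K4me1 were not paired within regions, and from 750 to 1000 bp they numbered 37324 and 950701. The median H3K4me2 ratio was 0.611 in vehicle-only regions with H3K4me1 inside only and 0.564 in those with it on 1 side. The part of this mix of regions in the shares was not tested.

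Along the genome, the vehicle-only regions lay on every autosome, 3354 of them in all, with 4 on chromosome X and 3 on unplaced sequence. As a share of promoter-like regions they made up between 18.1% on chromosome 7 (140 of 775) and 39.7% on chromosome 15 (209 of 527), with a median of 29.0% over the 19 autosomes. On chromosome X they made up 2.58% (4 of 155; 95% Wilson interval 1.01 to 6.45%), where only 77 vehicle H3K4me1 peaks were listed. Chromosome 15 also had the largest share with any vehicle H3K4me1, 72.3%, and the smallest share of those without S2101 H3K4me1, 54.9%. For chromosome 7 these were 22.3% and 80.9%.

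**Figure D5:**
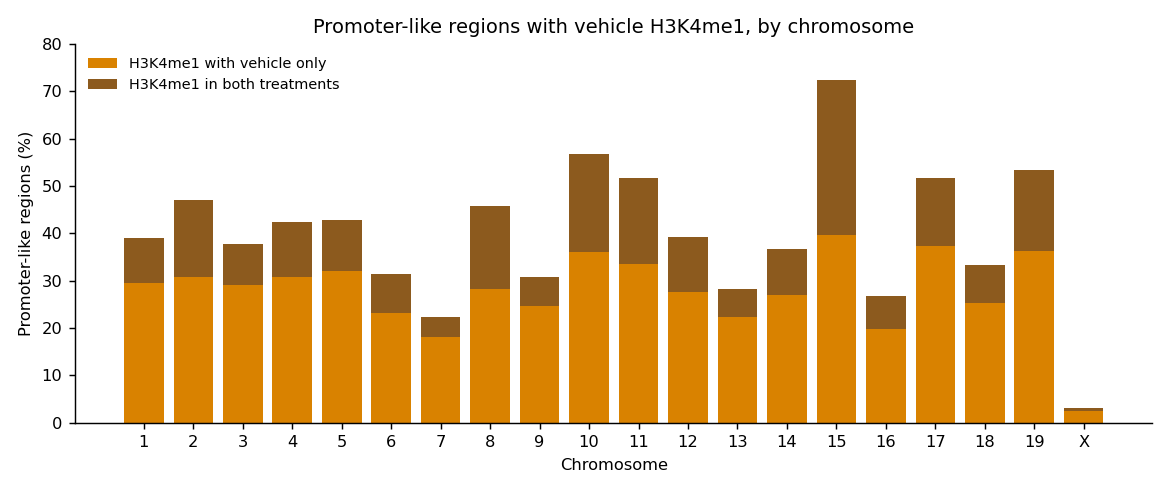
Share of promoter-like regions (y axis, %) with H3K4me1 listed with vehicle only (orange) or in both treatments (brown), per chromosome (x axis). Chromosome 15 stands highest at 72.3% in all and chromosome 7 lowest of the autosomes at 22.3%, and chromosome X is at 3.23%.

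Over the 19 autosomes, the share of promoter-like regions with vehicle H3K4me1 and the share of those without S2101 H3K4me1 were inversely related (Pearson r = −0.875, Spearman rho = −0.839). The same share and the median H3K4me2 ratio of the vehicle-only regions were positively related (r = 0.871, rho = 0.825). That ratio was 0.479 on chromosome 7 and 0.647 on chromosome 15, the 2 ends of the range. For the H3K4me3 ratio r was −0.440 (rho −0.302). These are descriptions across chromosomes of the same 6 libraries, whose values share the library and the caller's threshold. Both shares in the first relation come from H3K4me1 calls that the rule used, so nothing is read from it.

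The rule leaves no S2101 H3K4me1 inside a vehicle-only region, and most had none within 10 kb, though most had some within 50 kb. The nearest S2101 H3K4me1 peak was 26978 bp from the region at the median (quartiles 7533.5 and 79658.5 bp; 3359 regions on chromosomes with such a peak). It was within 1 kb in 6.04%, within 10 kb in 29.7% and within 50 kb in 64.2%. Regions with H3K4me1 in neither treatment stood further away, at 65013 bp at the median, with 14.8% within 10 kb and 43.7% within 50 kb. The distance was shorter for stronger vehicle peaks, 37855.5 bp in the lowest-scoring quartile group of vehicle-only regions and 15076 bp in the highest. The next promoter-like region along the chromosome was itself vehicle-only in 33.1% (1110 of 3352; 95% Wilson interval 31.5 to 34.7%), 25.5% (24.5 to 26.6%) after a region with H3K4me1 in neither treatment and 34.0% (31.7 to 36.5%) after a region with H3K4me1 in both, whose interval overlaps that of the vehicle-only regions. Vehicle-only regions made up 29.0% of promoter-like regions on the median autosome, with a range of 18.1 to 39.7%. The part of this range in the shares of neighbours was not tested. Across the 4 quartile groups of vehicle score, the median H3K4me2 ratio ranged only from 0.558 to 0.589 and the H3K4me3 ratio from 1.05 to 1.07.

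At the border of the rule, 32 vehicle-only regions had an S2101 H3K4me1 peak within 100 bp. The closest was on chromosome 3 (51999796 to 52003058), where the S2101 peak abutted the region, followed by chromosome 11 (118212636 to 118217917, 1 bp away) and chromosome 14 (67485095 to 67488818, 3 bp away). Just outside the rule, the regions with the fewest S2101 H3K4me1 bases were on chromosome 1 (134372468 to 134375316, 549 bp in the vehicle list, 191 bp in the S2101 list), chromosome 7 (27949978 to 27952796, 826 and 204 bp) and chromosome 11 (55281543 to 55282950, 521 and 210 bp). The S2101 scores of those 3 were 111.68, 105.48 and 100.56, at the foot of the list.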

How the data were processed

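Of 12 samples, the 6 with peak lists were analysed, grouped by the titles in the labels; the 4 inputs and 2 H3 samples were not analysed here. Per the file headers, the authors called peaks with MACS in Galaxy, 1 list per library, and each peak has a position and the deposited score of the caller. Positions are in mm9, and the tools named besides MACS are deepTools and Bowtie2, per the submitters' processing notes. As caller settings, the input used and numbers of reads are not given in the sources at hand, depth is unknown and lists were compared unscaled. Fewer reads in a library can make its peaks fewer, shorter and lower in score. No cell type marker or gene was checked, because the gene and promoter tables at hand are of GRCm38 and coordinates were not converted. For the same reason no sequence is shown.

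Lists were merged at an overlap of 1 bp. Covered length is the number of bases of a region under a list, and sides were taken from the outer bounds of vehicle H3K4me3. Intervals are 95% Wilson intervals, for counting error only. All comparisons are descriptive. Regions were named by fixed ranks: the 8 highest vehicle H3K4me1 scores, the 5 with most H3K4me1 bases, the 5 widest, the 3 highest and lowest ratios of each other mark (at least 500 bp with vehicle) and the 3 on either border of the rule. The members and these choices were made with earlier results of these data known. The interval functions were tested on simulated data and against bedtools 2.31.1. Scripts ran in Python 3.11.15 with matplotlib 3.10.9, scipy 1.17.1, pandas 2.3.3 and numpy 2.4.6.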

Additional observations from a re-analysis of the deposited data

How the results depend on the processing

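The size of the set depends on the H3K4me1 threshold, while the lengths of the other marks moved little. The number of vehicle-only regions (3361) was 1589 with scores of 200 or more in all lists, 1394 with the vehicle H3K4me1 list made as long as the S2101 list, and 1122 with vehicle H3K4me1 scores of 200 or more. Their share of the promoter-like regions with vehicle H3K4me1 (69.6%) was 83.1%, 55.4% and 51.9% under those 3 settings, 63.8% with peaks up to 1 kb apart merged, 67.3% with vehicle H3K4me3 peaks widened by 1 kb as regions, and 65.4% with S2101 H3K4me1 within 1 kb counted as present, a setting chosen after seeing the data. The share with H3K4me1 on 1 side (66.6%) was 79.4%, 77.7% and 80.4% under the 3 threshold settings, and the median distance to S2101 H3K4me1 (26978 bp) was 47099.5, 17441 and 16221 bp, and 31162 bp with merging up to 1 kb. The median H3K4me2 ratio (0.576) was 0.557, 0.588 and 0.589, and 0.564 in regions with H3K4me1 on 1 side only, a subset chosen after seeing the data. The median H3K4me3 ratio (1.06) was 1.062 with vehicle H3K4me1 scores of 200 or more and 1.064 in that subset. The share of H3K4me1 bases under S2101 H3K4me2 (47.3%) was 40.3% with scores of 200 or more in all lists. The other 23 of 46 values stayed within the interval of the value reported, within 1 SD over autosomes for the share of bases, or within 1.5 times for the count, and these include all 7 without chromosomes 7 and 15. The causes were not tested. No paired analysis was possible because each mark and treatment has 1 library. Read depth is unknown, so how far it limits the lists cannot be said.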
